A study of Mus musculus with 12 samples.

Results

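Antioxidant and Nrf2 target genes were followed across wild-type and polycystic mouse kidneys. The 10 genes were *Nqo1*, *Hmox1*, *Gclc*, *Gclm*, *Txnrd1*, *Srxn1*, *Gpx1*, *Gpx3*, *Cat* and *Sod1*, chosen by name from a table of 35275 genes, with the row of highest count taken for each symbol. RNA came from kidney tissue of 12 C57BL/6J mice at 6 months of age, in 3 groups of 4 mice (2 females and 2 males each). WT mice carried unmodified *Pkd1* and *Casp1*. RC/RC mice carried *Pkd1*RC, a knock-in missense allele of reduced function, on both chromosomes and in every cell, and they develop cysts slowly. RC/RC:*Casp1*KO mice, named knockout mice hereafter, carried the same 2 *Pkd1*RC copies and, in addition, a short TALEN-made deletion on both copies of *Casp1*, which takes the codon of the active-site cysteine; all of them carry 1 and the same mutation, in every tissue. No group with the *Casp1* deletion on unmodified *Pkd1* was analysed here, so the deletion was measured in cystic kidneys alone.

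Nrf2 (encoded by *Nfe2l2*) is the transcription factor that most cells use against oxidants and electrophiles. In resting cells Keap1 holds Nrf2 and has it degraded, whereas modified Keap1 lets it accumulate, pair with a small Maf protein and bind antioxidant response elements near its target genes. *Nqo1*, *Hmox1*, *Gclc*, *Gclm*, *Txnrd1* and *Srxn1* are classical targets, while *Gpx1*, *Gpx3*, *Cat* and *Sod1* encode enzymes that remove superoxide and peroxides and are expressed strongly without induction. In the kidney, the proximal tubule is rich in mitochondria and peroxisomes and is the main source of the plasma glutathione peroxidase encoded by *Gpx3*.

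The core letters of the antioxidant response element, TGACNNNGC, were sought on both strands of RefSeq promoters (build GRCm38.p6), each from 250 bases before to 50 bases after a gene's start. These letters occurred in 4071 of 32851 promoters (12.4%), and in at least 1 promoter of 14% of gene symbols. Promoters were listed for 8 of the 10 genes, and 4 of them held a match (*Txnrd1* in 1 of its 3 listed promoters), always on the strand opposite to the gene. The matched stretches are shown because they hold the letters that pairs of Nrf2 and a small Maf are known to bind. Each is printed 5′ to 3′ on the gene's own strand, and capitals mark the match, which therefore reads as the reverse complement of the letters above.
*Gclm*, chr3:122245407-122245447, plus strand, match starting at −134 from the start site: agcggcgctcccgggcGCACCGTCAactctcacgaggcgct
*Txnrd1*, chr10:82859098-82859138, plus strand, match starting at −92: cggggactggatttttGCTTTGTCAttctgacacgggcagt
*Sod1*, chr16:90220690-90220730, plus strand, match starting at −56: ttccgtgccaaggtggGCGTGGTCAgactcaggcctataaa
*Srxn1*, chr2:152105536-152105573, plus strand, match starting at 28: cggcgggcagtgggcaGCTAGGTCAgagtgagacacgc
The listed promoters of *Nqo1*, *Gpx1*, *Gpx3* and *Cat* held no such letters in this window. The first 4 letters of the element also begin the sites of other factors of the same bZIP class, and a match describes the sequence alone.

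Between 18019819 and 24869454 reads per mouse were counted on genes, and the 10 genes together took 1.99% to 3.6% of them. Levels are given as counts per 1000000 reads (CPM) after TMM scaling, which corrects each library's total for its composition. *Casp1*, the gene disrupted in the knockout, was read first as a check of the labels. It stood at 2.05, 1.29, 1.31 and 1.41 CPM in the 4 WT mice, at 3.33, 3.87, 4.24 and 2.62 CPM in RC/RC mice and at 0.665, 0.382, 1.06 and 0.667 CPM in knockout mice. No knockout mouse reached the lowest mouse of either other group (log2 fold change −2.35 ± 0.32 (SE) against RC/RC, adjusted p = 0.00514), with 10 to 23 reads left on the gene in each; reads outside the deleted bases are counted too. *Pkd1*, whose RC allele is a missense change, differed by 0.06 ± 0.20 on the log2 scale between RC/RC and WT (adjusted p = 0.878), so its level does not check the genotype. Markers of the nephron were abundant in every library, with summed levels of 6132 to 22465 CPM for 10 proximal tubule genes and of 3175 to 6902 CPM for 4 genes of the thick ascending limb.

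In RC/RC against WT kidneys, 9 of the 10 genes had a lower estimate and *Sod1* a higher one, and *Srxn1* alone passed the test (quasi-likelihood test of edgeR, p adjusted by Benjamini-Hochberg over all genes tested, threshold 0.05). That is 1 of 10 genes lower and 0 higher, where 3.18% of the 15243 genes tested fell and 9.76% rose. Every RC/RC mouse lay below every WT mouse for *Gclm* and *Srxn1* (2 of 10, against 7.05% of all genes), and with library size alone for *Srxn1* only (1 of 10, against 3.52% of all genes). The median log2 fold change of the 10 genes was −0.3, against −0.02 over all genes tested.

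In knockout against RC/RC kidneys, none of the 10 genes passed the test, although 1797 of 15428 genes did (7.23% rose and 4.41% fell). That number was itself unsteady, at 993 with library size alone and 438 to 2789 on leaving out 1 mouse (lowest without RC/RC 3, highest without RC/RC 1). *Hmox1* came nearest (adjusted p = 0.0664), and it was the 1 gene with an unadjusted p under 0.05, which 31.7% of all genes had. DESeq2 called *Hmox1* lower (adjusted p = 0.0206) and no other of the 10, where it called 9.47% of all genes lower. The estimates were below 0 for 9 genes and above 0 for *Cat*, with a median of −0.23 against −0.03 over all genes. For none of the 10 did every mouse of the knockout lie below every RC/RC mouse, an ordering that 8.65% of all genes showed.

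In knockout against WT kidneys, the data gave a lower estimate for all 10 genes, with *Cat* and *Sod1* just above 0 when library size alone set the scale. The highest knockout mouse was below the lowest WT mouse for 7 genes (*Nqo1*, *Hmox1*, *Gclc*, *Gclm*, *Txnrd1*, *Srxn1* and *Gpx3*), that is for all 6 classical Nrf2 targets, where 6.50% of the 15346 genes tested were so ordered. With library size alone 5 of the 10 kept that order (all but *Nqo1* and *Gclm*), against 2.35% of all genes. *Gclc* was the 1 gene to pass edgeR's test, where 0.893% of all genes fell and 1.13% rose. An unadjusted p under 0.05 was likewise found for 7 genes, and for 21.8% of all genes tested. DESeq2 called 6 of the 10 lower, namely *Nqo1*, *Gclc*, *Gclm*, *Txnrd1*, *Srxn1* and *Gpx3*, and 4.11% of all genes. The median log2 fold change of the 10 genes was −0.41, against 0.01 over all genes. The 3 comparisons share mice, each group entering 2 of them, so they are not independent of one another. In RNA of kidney tissue, fewer cells of a type and less RNA per cell cannot be told apart.

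**Figure D1:**
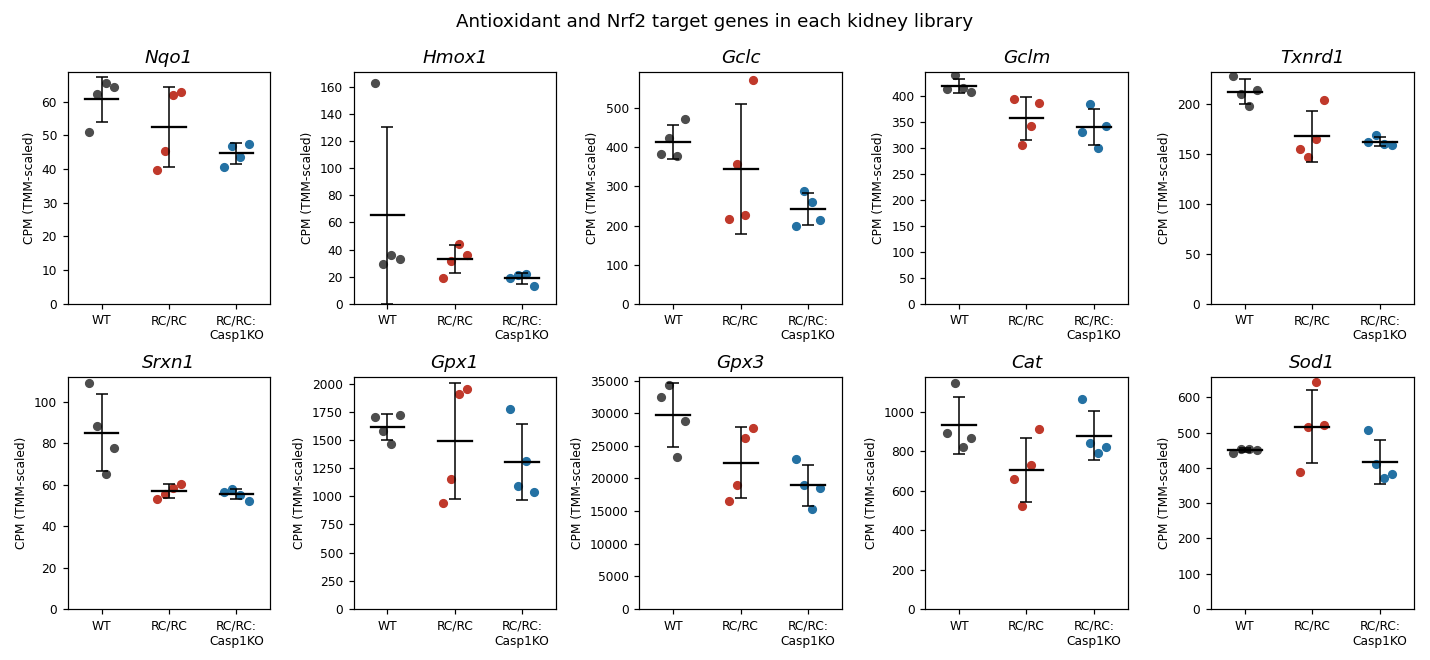
TMM-scaled CPM of each of the 10 genes in each mouse, on linear axes from 0; points are mice (4 per group), horizontal bars the group means and whiskers 1 SD. The RC/RC:Casp1KO points are wholly under the WT points for Nqo1, Hmox1, Gclc, Gclm, Txnrd1, Srxn1 and Gpx3, and 1 WT mouse (163 CPM) sets the WT mean of Hmox1.

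Glutamate-cysteine ligase, the enzyme that limits glutathione synthesis, is made of a catalytic subunit (*Gclc*) and a modifier subunit (*Gclm*). *Gclc* (ENSMUSG00000032350, chromosome 9, 77754535 to 77794485) was at 382, 424, 378 and 472 CPM in WT, at 217, 358, 228 and 573 CPM in RC/RC and at 200, 289, 261 and 215 CPM in knockout mice. The RC/RC mice were spread on both sides of the WT range, with 2 near the knockout level, 1 slightly below WT and 1 above it, whereas the knockout mice were all low. The fold change of *Gclc* was accordingly uncertain between RC/RC and WT (log2 −0.27 ± 0.29 (SE), adjusted p = 0.567), and *Gclc* fell in knockout against WT by 0.78 on the log2 scale (SE 0.14, adjusted p = 0.0327). This call passed in 7 of 14 alternative settings (adjusted p from 1.07e-05 to 0.142), and it was lost with library size alone, with the spread of all 12 libraries and without WT 1, WT 2, WT 4, knockout 3 or knockout 4. Between knockout and RC/RC the log2 fold change was −0.53 ± 0.31 (adjusted p = 0.266). Over the 14 alternative settings this value ran from −0.71 to −0.15, and that of RC/RC against WT from −0.63 to −0.11, neither ever passing.

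*Gclm* (ENSMUSG00000028124, chromosome 3, 122245557 to 122269984) was at 413, 440, 416 and 409 CPM in WT, at 395, 306, 342 and 386 CPM in RC/RC and at 332, 385, 301 and 343 CPM in knockout mice. After TMM scaling the WT mice were close together and above all 8 cystic mice, while the ranges of both cystic groups overlapped almost wholly. With library size alone, RC/RC 1 (0.0427% of reads) was above all WT mice (0.0383% to 0.0409%). Knockout 2 (0.0405%) was then within the WT range. The *Gclm* differences from WT were small, with log2 fold changes of −0.23 ± 0.12 (adjusted p = 0.247) in RC/RC and −0.30 ± 0.10 (adjusted p = 0.148) in knockout, and −0.08 ± 0.14 (adjusted p = 0.722) between the 2 cystic groups. A stretch of 736 bases in *Gclm* transcripts was 98.9% identical to *Ppia*, so reads of these genes may have been exchanged: *Ppia* had 151343 reads and *Gclm* 96168 over the 12 libraries.

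Thioredoxin reductase 1 (*Txnrd1*) keeps cytosolic thioredoxin reduced, and sulfiredoxin (*Srxn1*) restores peroxiredoxins that have been over-oxidized. *Srxn1* (ENSMUSG00000032802, chromosome 2, 152105516 to 152111376) was at 109, 88.1, 65 and 77.8 CPM in WT, at 53.2, 55.4, 58.5 and 60.4 CPM in RC/RC and at 56.3, 58.1, 55.1 and 52.1 CPM in knockout mice. All 8 cystic mice were below all WT mice and within a narrow band (SD 3.18 and 2.53 CPM, against 18.4 CPM in WT). *Srxn1* fell by 0.58 on the log2 scale in RC/RC against WT (SE 0.15, adjusted p = 0.0334). The estimate against WT was nearly the same in knockout, −0.61 ± 0.14, which did not pass edgeR's test (adjusted p = 0.0682), and the 2 cystic groups differed by −0.05 ± 0.09 (adjusted p = 0.741). The RC/RC call passed in 7 of 14 alternative settings (adjusted p from 0.00534 to 0.0807). It was lost with library size alone and without WT 1, WT 2, WT 4, RC/RC 1, RC/RC 2 or RC/RC 3.

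*Txnrd1* (ENSMUSG00000020250, chromosome 10, 82859206 to 82897724) was at 228, 210, 198 and 214 CPM in WT, at 155, 147, 165 and 204 CPM in RC/RC and at 162, 169, 160 and 159 CPM in knockout mice. RC/RC 1 to 3 and all the knockout mice were below the WT range, and RC/RC 4 was inside it. The log2 fold changes of *Txnrd1* were −0.34 ± 0.13 (adjusted p = 0.121) in RC/RC against WT and −0.38 ± 0.08 (adjusted p = 0.0521) in knockout against WT, neither past the threshold. The 2 cystic groups differed by −0.06 ± 0.13 (adjusted p = 0.781).

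*Nqo1* encodes a quinone reductase whose transcript is widely used as a readout of Nrf2. *Nqo1* (ENSMUSG00000003849, chromosome 8, 107388225 to 107403206) was at 50.9, 62.3, 65.5 and 64.3 CPM in WT, at 39.6, 45.4, 61.9 and 63 CPM in RC/RC and at 40.5, 46.8, 43.7 and 47.5 CPM in knockout mice. RC/RC 3 and RC/RC 4 were at the WT level and the other 2 RC/RC mice were at the knockout level. All knockout mice were below all WT mice after TMM scaling. With library size alone, *Nqo1* in knockout 2 (0.00493% of reads) and knockout 4 (0.00514%) was above that in WT 1 (0.00491%). Its log2 fold change was −0.21 ± 0.17 (adjusted p = 0.417) in RC/RC against WT, −0.25 ± 0.16 (adjusted p = 0.332) in knockout against RC/RC and −0.44 ± 0.10 (adjusted p = 0.0603) in knockout against WT.

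*Hmox1* encodes heme oxygenase 1, which opens the heme ring to biliverdin, iron and carbon monoxide. *Hmox1* (ENSMUSG00000005413, chromosome 8, 75093591 to 75100596) was at 163, 29.6, 36 and 32.8 CPM in WT, at 19.2, 31.9, 44.2 and 36 CPM in RC/RC and at 19, 21.4, 22.1 and 13.3 CPM in knockout mice. The first WT mouse stood far above the 11 others, the remaining WT mice lay inside the RC/RC range, and the knockout mice were below all WT mice. With all mice, the log2 fold change of *Hmox1* was −0.99 ± 0.55 (adjusted p = 0.261) in RC/RC against WT and −1.78 ± 0.56 (adjusted p = 0.131) in knockout against WT. Without WT 1 these values were 0.00 (adjusted p = 0.993) and −0.79 (adjusted p = 0.0982). knockout against RC/RC, which does not involve that mouse, gave −0.81 ± 0.25 (adjusted p = 0.0664).

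Glutathione peroxidases reduce peroxides with glutathione, GPX1 inside cells and GPX3 after secretion into plasma. *Gpx3* (ENSMUSG00000018339, chromosome 11, 54902453 to 54910377) was at 32416, 34295, 23220 and 28864 CPM in WT, at 16605, 19020, 26147 and 27808 CPM in RC/RC and at 23054, 18965, 15350 and 18478 CPM in knockout mice. *Gpx3* alone thus held 1.64% to 3.19% of a library's reads, so that a change in it also moves the total by which other genes are scaled. RC/RC mice overlapped WT and the highest knockout mouse was just below the lowest WT mouse. The log2 fold changes of *Gpx3* were −0.41 ± 0.26 (adjusted p = 0.32), −0.25 ± 0.27 (adjusted p = 0.554) and −0.64 ± 0.19 (adjusted p = 0.121) in RC/RC against WT, knockout against RC/RC and knockout against WT.

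*Gpx1* (ENSMUSG00000063856, chromosome 9, 108339080 to 108340338) was at 1699, 1582, 1464 and 1718 CPM in WT, at 943, 1152, 1904 and 1953 CPM in RC/RC and at 1776, 1093, 1310 and 1037 CPM in knockout mice. RC/RC 1 and RC/RC 2 were below the WT range and RC/RC 3 and RC/RC 4 above it, and the group means of *Gpx1* differed by less than the spread between RC/RC mice. Its log2 fold changes were −0.12 ± 0.24 (adjusted p = 0.773), −0.21 ± 0.29 (adjusted p = 0.652) and −0.31 ± 0.18 (adjusted p = 0.338) in the 3 comparisons in the same order. *Xist*, the transcript of the inactive X chromosome, was at 434, 280, 0.0537 and 0.257 CPM in the same RC/RC mice, at 314, 358, 0.352 and 0.236 CPM in WT, at 661 and 782 CPM in knockout 2 and knockout 4, and under 1 CPM in the other 2 knockout mice. The RC/RC and knockout mice with high *Xist* were thus the ones with lower *Gpx1*, an order that the WT mice did not show. The columns of the table name no sex and none was assigned, so the part of sex in this spread was not tested.

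Catalase (*Cat*) breaks down hydrogen peroxide in peroxisomes. *Cat* (ENSMUSG00000027187, chromosome 2, 103453849 to 103485160) was at 893, 1144, 823 and 866 CPM in WT, at 657, 522, 730 and 911 CPM in RC/RC and at 1064, 839, 792 and 820 CPM in knockout mice. RC/RC 1, 2 and 3 were below the other 2 groups, which overlapped almost wholly. The log2 fold changes of *Cat* were −0.40 ± 0.19 (adjusted p = 0.2) in RC/RC against WT, 0.30 ± 0.20 (adjusted p = 0.32) in knockout against RC/RC and −0.08 ± 0.15 (adjusted p = 0.777) in knockout against WT.

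Copper-zinc superoxide dismutase (*Sod1*) turns superoxide into hydrogen peroxide in the cytosol. *Sod1* (ENSMUSG00000022982, chromosome 16, 90220742 to 90226322) was at 442, 454, 454 and 452 CPM in WT, at 388, 515, 643 and 521 CPM in RC/RC and at 508, 410, 371 and 383 CPM in knockout mice. The WT mice were within 12 CPM of one another, 3 RC/RC mice were above them and 3 knockout mice below. None of the *Sod1* differences passed, with log2 fold changes of 0.20 ± 0.16 (adjusted p = 0.435), −0.32 ± 0.18 (adjusted p = 0.264) and −0.10 ± 0.12 (adjusted p = 0.616) in RC/RC against WT, knockout against RC/RC and knockout against WT. The pseudogene *Gm8566* is 97% identical to *Sod1* over 465 bases, and it had 52 reads against 117439 for *Sod1*. In the newer GENCODE gene models, *Sod1* also shares 4102 bases with its opposite-strand neighbour *Scaf4* (10544 reads), and *Gpx3* shares 2067 bases with *Tnip1* (9116 reads, against 6038044 for *Gpx3*); in the deposited table the spans of these neighbours do not overlap. *Gpx1* shares 900 identical bases with *Gm57050* in those models, and reads of the latter were not analysed here.

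**Figure D2:**
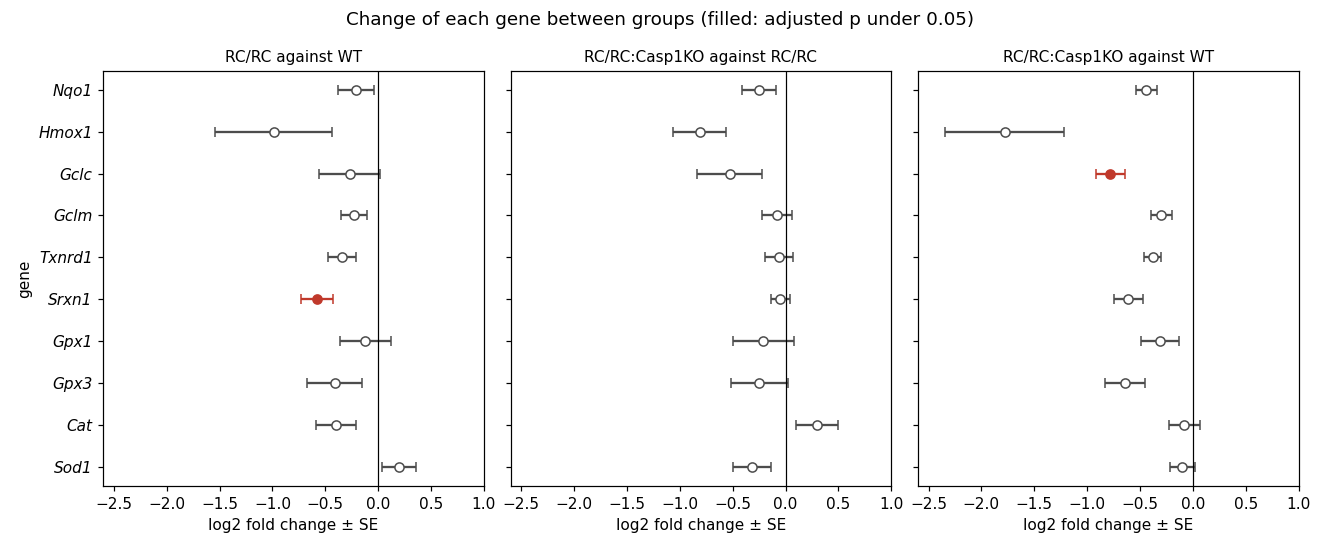
Log2 fold change of the 10 genes in the 3 comparisons (x axis), with points for edgeR estimates from 4 against 4 mice and whiskers for 1 SE; filled points have an adjusted p under 0.05. Srxn1 in RC/RC against WT (−0.58) and Gclc in RC/RC:Casp1KO against WT (−0.78) are the filled points, and Sod1 in the first comparison (0.20) and Cat in the second (0.30) are the estimates above 0.

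Levels of different genes were compared per kilobase of gene length, as CPM per kb in WT kidneys. *Gpx3* led at 18631 ± 3056 CPM per kb (SD, n = 4), followed by *Gpx1* at 1552 ± 113, *Sod1* at 698 ± 8.52 and *Cat* at 356 ± 55.2 CPM per kb. *Gclc* (121 ± 12.8), *Gclm* (86.7 ± 2.87) and *Txnrd1* (62.1 ± 3.6 CPM per kb) came next, and up to there the ranges of neighbours in this order did not overlap. *Hmox1* (40.7 ± 40.5), *Nqo1* (39.1 ± 4.31) and *Srxn1* (30.2 ± 6.56 CPM per kb) had overlapping ranges at the bottom, with *Hmox1* also overlapping *Txnrd1* and *Gclm*. The place of *Hmox1* rests on WT 1 (101 CPM per kb), since the other WT mice were at 18.4 to 22.4 CPM per kb, below every WT value of *Srxn1*. The 4 enzymes that act on superoxide and peroxides thus had higher levels per length than the 6 classical Nrf2 targets.

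Across the 12 mice, log2 CPM of *Txnrd1* went with that of *Srxn1* (Pearson r = 0.87) and of *Gpx3* (r = 0.84), and *Srxn1* with *Gpx3* (r = 0.81). These coefficients describe 12 points that include the differences between groups and share each library's scaling. Among 11335 genes, the profiles most like *Srxn1* were those of *Smim5* (r = 0.94) and *Scly*, which encodes selenocysteine lyase (r = 0.92). The profiles most like *Gclc* were those of *Alas1*, the first enzyme of heme synthesis (r = 0.9), and *Keg1* (r = 0.89).

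The factor itself and its keeper were measured as well. *Nfe2l2* was at 77.3 to 113 CPM in WT (median 96.3), at 100 to 120 CPM in RC/RC (median 110) and at 82.9 to 101 CPM in knockout mice (median 87.5), with overlapping groups. *Nfe2l2* had log2 fold changes of 0.20 ± 0.14 (adjusted p = 0.341) in RC/RC against WT and −0.31 ± 0.11 (adjusted p = 0.095) in knockout against RC/RC. *Keap1* differed by 0.06 ± 0.10 (adjusted p = 0.71) and −0.19 ± 0.10 (adjusted p = 0.245) in the same comparisons. Nrf2 activity is set mainly by protein stability, which these transcript levels do not measure. Of the 12 genes of the Nrf2 switch, the small Maf genes *Maff* and *Mafg*, whose products pair with Nrf2, were the ones that passed: *Maff* rose in RC/RC against WT (log2 fold change 1.5, adjusted p = 0.00407) and fell in knockout against RC/RC by 1.54 (adjusted p = 0.00715). *Mafg* changed the other way, falling by 0.78 (adjusted p = 0.0289) and then rising by 0.89 (adjusted p = 0.00305).

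Other genes of the same pathways were counted in the same fits. Over 9 lists of redox, heme, selenium and peroxisome genes, 140 of 154 distinct genes were tested, and 12 rose and 6 fell in RC/RC against WT, 4 rose and 6 fell in knockout against RC/RC, and 2 rose and 5 fell in knockout against WT. For comparison, all genes tested rose and fell at 9.76% and 3.18%, 7.23% and 4.41%, and 1.13% and 0.893%, so that these counts in RC/RC against WT are near the background. The medians of their log2 fold changes were −0.07, −0.15 and −0.15. Of 28 further Nrf2 target genes tested, *Blvrb* (biliverdin reductase B) rose in RC/RC (1.55, adjusted p = 0.00369) and in knockout (1.22, adjusted p = 0.00166) against WT. *Pgd* and *Gsr*, which supply NADPH and use it to reduce oxidized glutathione, fell in knockout against WT by 0.57 (adjusted p = 0.0281) and 0.66 (adjusted p = 0.0458). None of the 28 was called between knockout and RC/RC.

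Among 23 genes of glutathione synthesis, recycling and peroxidases beside *Gclc*, *Gclm*, *Gpx1* and *Gpx3*, the peroxidase gene *Gpx7* rose in RC/RC against WT (1.54, adjusted p = 0.0115) and fell in the knockout against RC/RC by 1.51 (adjusted p = 0.0387), where *Gpx8* fell too, by 1.11 (adjusted p = 0.0386). *Glo1*, which uses glutathione to detoxify methylglyoxal, rose against WT in RC/RC (1.03, adjusted p = 0.00111) and in knockout (0.81, adjusted p = 0.0135). *Dpep1*, a dipeptidase of the tubule brush border that splits a breakdown product of glutathione, fell in knockout against WT by 0.90 (adjusted p = 0.0134). Of 21 thioredoxin, peroxiredoxin and sestrin genes, *Prdx4* (0.59, adjusted p = 0.0164) and *Msrb3* (0.82, adjusted p = 0.0293) rose in RC/RC against WT. *Msrb3* and *Sepw1* fell in the knockout against RC/RC by 0.75 (adjusted p = 0.0354) and 0.98 (adjusted p = 0.0452). None of the 21 was called in knockout against WT, where *Prdx3* (−0.37, adjusted p = 0.111) and *Prdx1* (−0.39, adjusted p = 0.127) came nearest.

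GPX1, GPX3 and thioredoxin reductase 1 contain selenocysteine, whose insertion needs the binding protein encoded by *Secisbp2*. *Secisbp2* fell in RC/RC against WT by 0.47 (adjusted p = 0.0499) and rose in knockout against RC/RC by 0.63 (adjusted p = 0.013), the latter together with *Lrp2* (1.52, adjusted p = 0.0144), the proximal tubule receptor megalin. These were 1 and 2 of 11 selenium genes, and none of the 11 was called in knockout against WT. Of 17 heme and iron genes tested beside *Hmox1*, *Slc46a1* (0.47), *Tfrc* (0.77) and *Mfsd7b* (0.63), which carry heme or iron across membranes, fell by these log2 values in RC/RC against WT (adjusted p = 0.0197, 0.0348 and 0.0442), and *Slc11a2* rose in knockout against RC/RC (0.66, adjusted p = 0.0377). Against WT, *Alas1* and *Slc46a1* fell in knockout by 0.99 (adjusted p = 0.0308) and 0.35 (adjusted p = 0.0485). Of 20 peroxisome genes tested beside *Cat*, *Ddo* alone was called, falling in RC/RC against WT by 0.38 (adjusted p = 0.0327). Of the 4 partners of *Sod1* (superoxide dismutases and metal chaperones), the copper chaperone gene *Atox1* fell in knockout against RC/RC by 0.64 (adjusted p = 0.0428), and none was called against WT.

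**Figure D3:**
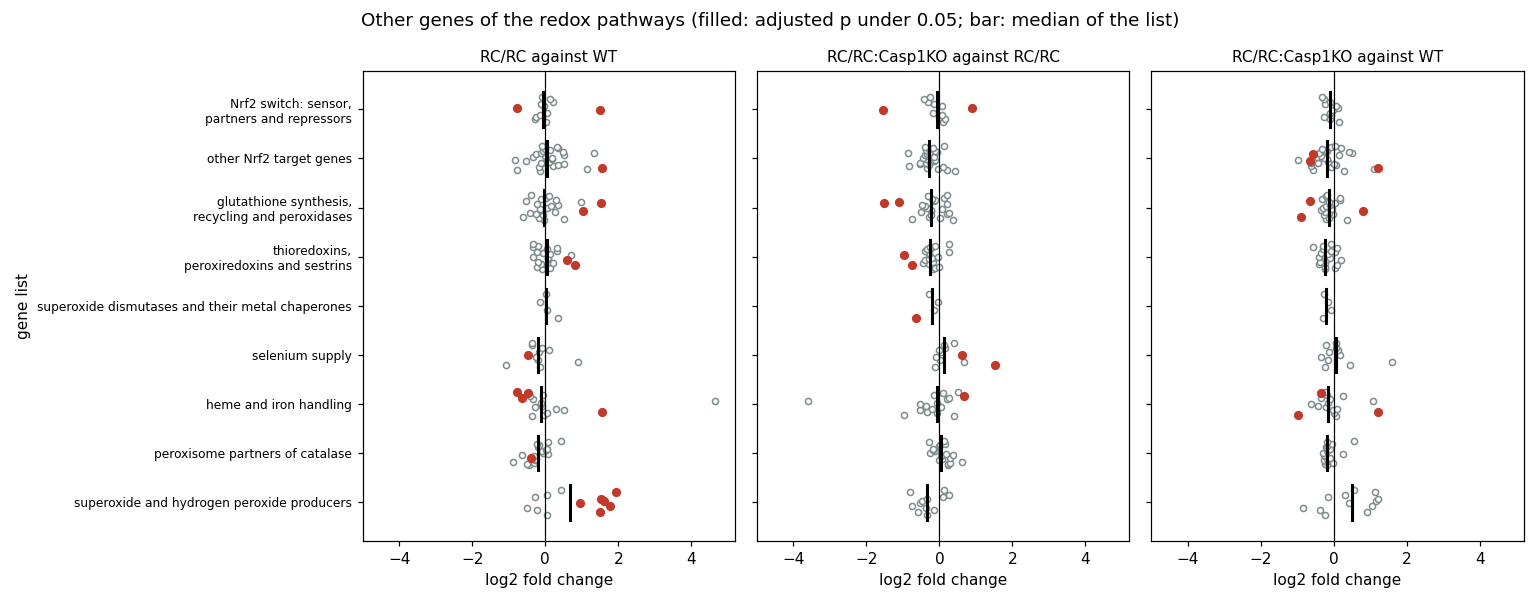
Log2 fold change (x axis) of each tested gene of 9 lists of related pathway genes, 1 list per row, in the 3 comparisons; filled points have an adjusted p under 0.05 and black bars are list medians. Called genes are few and lie on both sides of 0, apart from the superoxide and hydrogen peroxide producers, of which 6 rose in RC/RC against WT.

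The enzymes that make superoxide, hydrogen peroxide or nitric oxide supply the substrates of this defence. Of 12 of their genes tested, 6 rose in RC/RC against WT, among them the phagocyte NADPH oxidase genes *Ncf1* (1.76, adjusted p = 0.000736), *Cybb* (1.49, adjusted p = 0.000901), *Ncf4* (1.61, adjusted p = 0.00241) and *Rac2* (1.93, adjusted p = 0.00241). The list's median was 0.69, against −0.02 over all genes. None of the 12 was called in the 2 other comparisons, with medians of −0.35 in knockout against RC/RC and 0.50 in knockout against WT. Macrophage markers rose in RC/RC against WT as well (9 of 10). Their summed levels were 215, 175, 180 and 163 CPM in WT mice, then 595, 567, 513 and 432 CPM in RC/RC and 219, 289, 506 and 274 CPM in knockout mice. *Csf1r*, the most abundant over all 12 mice, had means of 70.2, 99.7 and 111 CPM in WT, RC/RC and knockout. *Lyz2* had means of 25.7, 149 and 66.3 CPM in the same order. In knockout against RC/RC, 3 of the 10 macrophage markers fell (median of the list −0.82). Their part in the levels of the oxidase genes was not tested. Neutrophil markers summed to at most 3.01 CPM in any mouse.

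Markers of other cell types are given beside the 10 genes because their levels also differed between groups. Summed proximal tubule markers (most abundant *Slc34a1*) were 12397, 14591, 22103 and 22465 CPM in WT mice, 8826, 6132, 12595 and 17533 CPM in RC/RC and 21847, 14531, 18519 and 14152 CPM in knockout mice. They were thus lowest in RC/RC 1 and RC/RC 2, the 2 with high *Xist* (434 and 280 CPM). After TMM scaling, these were also the lower 2 RC/RC mice for 8 of the 10 genes (all but *Gclc* and *Gclm*). Their TMM factors were 1.081 and 1.048, against 0.966 and 0.961 in RC/RC 3 and RC/RC 4. With library size alone, the order was lost for *Txnrd1*, *Srxn1*, *Cat* and *Sod1* too. How many of all genes tested show that order was not counted, so the 8 of 10 has no background to be read against. In all 3 groups the 2 mice with high *Xist* had the lower 2 sums. In knockout mice these sums lay within the WT range. Of the 10 markers, *Slc5a2* and *Cubn* fell in RC/RC against WT, *Lrp2* and *Cubn* rose in knockout against RC/RC, and none was called in knockout against WT.

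Summed red cell markers (most abundant *Hbb-bs*) were 900, 822, 649 and 477 CPM in WT mice, 126, 269, 261 and 259 CPM in RC/RC and 395, 348, 217 and 258 CPM in knockout mice; all 5 tested fell in RC/RC and 4 in knockout against WT. WT 1, the mouse with the highest *Hmox1* and *Srxn1*, had the highest sum (900 CPM). WT 2 had the lowest *Hmox1* of the WT mice (29.6 CPM) and a sum of 822 CPM. In summed intercalated cell markers, WT 1 was at 608 CPM, against 360, 221 and 255 CPM in the other WT mice. Of these markers *Slc4a1* had the highest level in a WT mouse, 281 CPM, and *Slc26a4* reached at most 132 CPM in WT. Fibroblast markers (7 of 7, most abundant *Col3a1*) and injured tubule markers (6 of 6, most abundant *Krt8*) rose in RC/RC against WT, and 5 and 1 of them fell in the knockout against RC/RC. *Nphs1* was the 1 of 4 podocyte markers to fall in RC/RC, and no marker of the thick ascending limb, the collecting duct (principal and intercalated cells), endothelium or neutrophils was called in any comparison. No marker was at 0 in all libraries, and the part of these cell types in the levels of the 10 genes was not tested.

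**Figure D4:**
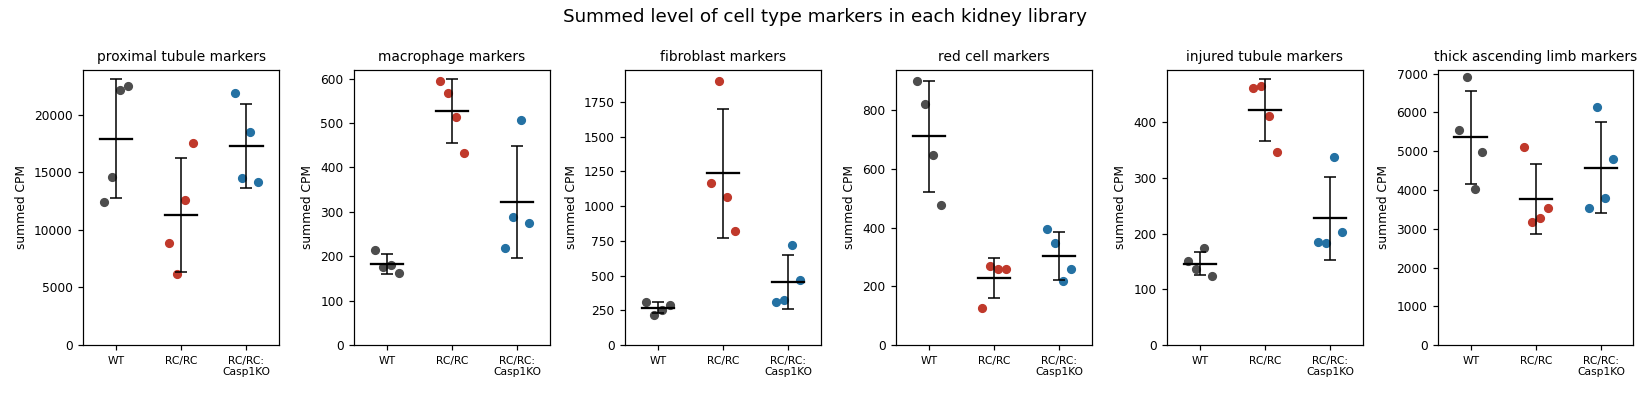
Summed TMM-scaled CPM of markers of 6 cell types in each mouse (points), with group means (bars) and 1 SD (whiskers), on axes from 0. Macrophage, fibroblast and injured tubule markers have their highest means in RC/RC, red cell markers lie highest in WT (477 to 900 CPM), and proximal tubule markers overlap between WT and RC/RC:Casp1KO.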

How the data were processed

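The authors deposited 1 table of the whole series with raw read counts per gene and mouse, without normalization. The submitters' processing notes name CASAVA 1.8, STAR and mm10, and the counting tool and its strand setting are not given in the sources used here. Poly(A) libraries were made from total RNA. Deposited columns of FPKM, group means and the authors' fold changes and p-values were not used. Gene lengths in the deposited table (unit other, base pairs) served for CPM per kb.

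Column names give the group of a mouse and not its sex or replicate number, so libraries are numbered within groups as names only. Separate mice are replicates. Each pair of groups was fitted with edgeR 4.0.16 (R 4.3.3; TMM, filterByExpr, quasi-likelihood test, 8 mice), with Benjamini-Hochberg adjustment over all genes tested and a threshold of 0.05. The script was tested on simulated data. CPM used TMM factors of all 12 libraries. Alternatives were DESeq2 1.42.0, RLE size factors, library size alone, no filter, at least 10 counts in every library, the spread of all 12 libraries, and leaving out each mouse. Scaling and one library were also varied for the non-overlap counts, chosen after seeing the data. Near copies were sought among GENCODE transcripts (at least 95% identity over 400 bases). RefSeq promoters were matched by symbol.

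All 10 genes were named, with *Casp1*, *Nfe2l2* and *Keap1*, and per list and comparison up to 4 called genes of lowest adjusted p, or 2 where none was called, of which some are left to the counts. Profiles were compared by Pearson's r of log2 CPM among genes with a mean of at least 5 CPM. The 10 genes and all lists were chosen with earlier results of these data known.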

Additional observations from a re-analysis of the deposited data

Results flagged for a closer look

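*Hmox1* was at 163 CPM in WT 1, against 29.6 to 36 CPM in the other WT mice. Its gap to the next value was 0.952 of the group's range, above Dixon's critical value for 4 samples. Of 30 groups checked (10 genes in 3 groups), this was the 1 with such a sample, and chance alone gives about 1 in 20. The same mouse had the highest *Srxn1* level, 109 CPM, within the spread of its group by this criterion.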

How the results depend on the processing

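No paired analysis was possible because the columns carry no replicate numbers. A fit with sex as a block was not run, because no sex was assigned to the columns. *Xist* did split each group into mice with high levels and mice under 1 CPM. The part of sex in the fold changes and in the spread within groups was not tested. Of the 30 fold changes (10 genes, 3 comparisons), signs turned for 5 under some setting, all of them small: *Gpx1* in RC/RC against WT (−0.28 to 0.03 on leaving out 1 mouse), *Txnrd1* and *Srxn1* in RC/RC:*Casp1*KO against RC/RC (−0.11 to 0.06 on leaving out 1 mouse, and 0.00 with library size alone), and *Cat* and *Sod1* in RC/RC:*Casp1*KO against WT (0.05 and 0.02 with library size alone; *Cat* −0.19 to 0.03 on leaving out 1 mouse). In RC/RC against WT, calls among the 10 genes numbered 0 with library size alone and 0 to 2 on leaving out 1 mouse (all genes 1162 to 2440), and genes of the 10 with every mouse lower numbered 1 with library size alone (3.52% of all genes, against 2 and 7.05%). In RC/RC:*Casp1*KO against RC/RC, DESeq2 called 3207 genes and 1 of the 10, library size alone 993 genes, and leaving out 1 mouse 438 to 2789 genes and 0 to 1 of the 10 (2789 and 1 without RC/RC 1). In RC/RC:*Casp1*KO against WT, the 311 genes became 1366 with 6 of the 10 under DESeq2, 167 with at least 10 counts in every library and 108 to 547 on leaving out 1 mouse (547 without RC/RC:*Casp1*KO 1), with 0 to 2 of the 10; library size alone left 0 of the 10. In place of *Gclc*, the gene called there was *Nqo1* without WT 1 and *Srxn1* with the spread of all 12 libraries. DESeq2 gave no adjusted p for *Hmox1* against WT. With library size alone the median of all genes in that comparison moved from 0.01 to 0.14, and the share of called genes that rose went from 75.4% to 86.1%, 62.1% to 82% and 55.9% to 79.8% in the 3 comparisons; DESeq2 gave 64% in the first. Counts of called genes in the lists stayed within 1.5 times in 659 of 840 repeats. Low levels limit *Casp1* (10 to 87 reads) more than the 10 genes.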
